A study of Mus musculus with 4 samples.

Results

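Mast cells of the mouse stomach epithelial layer were chosen by measured values, as the cell barcodes of the stomach library that held at least 3 unique molecular identifiers (UMIs, tags by which each captured transcript is counted singly) of Cpa3, the mast cell carboxypeptidase, and 0 UMIs summed over the lineage genes Cd3d, Cd3e, Cd3g, Cd79a and Csf1r. The first trio encodes the CD3 chains of T cells, Cd79a a chain of the B cell receptor complex, and Csf1r the growth factor receptor of macrophages. The rule was met by 1752 of the 3199 stomach barcodes, 54.8% (53.0–56.5). It was also met by 56 of 3171 barcodes of the small intestine library, 1.77% (1.34–2.29), by 15 of 4244 of the cecum library, 0.353% (0.198–0.582), and by 2 of 3764 of the colon library, 0.0531% (0.00644–0.192), or 1825 of 14378 barcodes in all. The stomach mast barcodes carried 46.0% of all UMIs of their library. Intervals in parentheses are exact 95% intervals (Clopper-Pearson for shares, Poisson for levels, conditional binomial for ratios) and cover counting error only.

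The study profiled live CD45+ leukocytes, sorted as CD45.2+ cells from the epithelial layer of uninfected C57BL/6 mice, by droplet sequencing of transcript 3′ ends. There were 4 libraries, 1 each from stomach, small intestine, cecum and colon. The labels give no number, age or sex of the mice and do not say whether animals were pooled, and the tissue labels were used although the shared protocol text names colons. With 1 library per tissue there is no replicate, so no p-value is given, and tissue, animal and library cannot be told apart.

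Mast cells are granulocytes that settle in tissue and release stored granules of proteases, histamine and proteoglycan when IgE bound to their high-affinity receptor is crosslinked. They depend on the receptor KIT, and in mice are divided by their proteases into a mucosal type, which makes the chymases Mcpt1 and Mcpt2 and can lie within epithelium, and a connective-tissue type, which makes Mcpt4, Cma1, the tryptases Tpsb2 and Tpsab1, and Cpa3. In the gut wall, mucosal mast cells are best known for their expansion during worm infection.

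The promoters of 4 of these granule protease genes are shown because the results below turn on these genes and the RefSeq table used here holds their windows. Mcpt2, Tpsb2 and Tpsab1 are named only. Each sequence runs from 250 bases before to 50 bases after the gene start (RefSeq, build GRCm38.p6) and is printed 5′ to 3′ on the strand of the gene. Capitals mark GATAA, or TTATC where it lies on the other strand, the core letters bound by GATA factors such as GATA2. The Cpa3 window lies at chr3:20242132-20242431 on the minus strand, the Cma1 window at chr14:55944626-55944925 (minus), the Mcpt1 window at chr14:56017714-56018013 (plus) and the Mcpt4 window at chr14:56062261-56062560 (minus).
Cpa3: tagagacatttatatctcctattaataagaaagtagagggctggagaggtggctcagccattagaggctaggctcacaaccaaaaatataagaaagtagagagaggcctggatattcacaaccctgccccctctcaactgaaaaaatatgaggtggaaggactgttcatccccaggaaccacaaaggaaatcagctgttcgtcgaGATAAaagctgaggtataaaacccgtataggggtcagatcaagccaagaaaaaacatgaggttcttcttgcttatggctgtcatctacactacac
Cma1: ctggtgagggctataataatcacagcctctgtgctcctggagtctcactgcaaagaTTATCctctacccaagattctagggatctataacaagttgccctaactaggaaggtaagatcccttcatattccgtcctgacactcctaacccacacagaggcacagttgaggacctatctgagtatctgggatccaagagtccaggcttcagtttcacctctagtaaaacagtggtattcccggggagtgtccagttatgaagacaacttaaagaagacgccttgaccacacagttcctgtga
Mcpt1: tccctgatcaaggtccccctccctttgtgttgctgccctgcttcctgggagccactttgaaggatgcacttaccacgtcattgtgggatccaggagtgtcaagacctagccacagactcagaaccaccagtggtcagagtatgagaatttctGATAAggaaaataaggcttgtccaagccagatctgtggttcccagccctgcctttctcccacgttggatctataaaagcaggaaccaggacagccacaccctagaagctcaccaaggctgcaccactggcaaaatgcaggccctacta
Mcpt4: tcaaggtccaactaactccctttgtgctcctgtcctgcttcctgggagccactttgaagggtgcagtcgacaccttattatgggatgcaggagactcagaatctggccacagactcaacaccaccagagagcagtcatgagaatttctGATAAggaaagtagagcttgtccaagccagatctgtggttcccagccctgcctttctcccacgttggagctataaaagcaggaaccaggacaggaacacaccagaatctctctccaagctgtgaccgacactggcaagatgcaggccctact
Each of the 4 windows held 1 match to GATAA on either strand. For scale, 25.4% of all 32851 promoter windows of the same length held at least 1 match, as did 17.1% of the 4101 windows of genes that entered the stomach comparison below. The letters TGANTCA (the AP-1 motif) and CATGTG (an E-box of the kind MITF binds) were in none of the 4 windows, and in 7.81% and 14.2% of all windows. The Mcpt1 and Mcpt4 windows were 81.4% identical in alignment, while every other pair of the 4 lay between 48.8% and 52.1%. A match is a string of letters and says nothing of binding in these cells.

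The chymase genes lie together on chromosome 14 (positions in GRCm38, GENCODE vM21). In order along it are Cma1 at 55941451 to 55944675 on the minus strand, Mcpt1 at 56017971 to 56020384 on the plus strand, Mcpt9 at 56026864 to 56030495 on the minus strand, Mcpt2 at 56042041 to 56044642 on the plus strand, Mcpt4 at 56059629 to 56062313 and Mcpt8 at 56082166 to 56085273, both on the minus strand. Gzmb lies farther along at 56258838 to 56262260. The tryptases Tpsab1 and Tpsb2 are at 25343245 to 25345562 and 25366305 to 25369098 of chromosome 17, and Cpa3 at 20215620 to 20242181 of chromosome 3. The pseudogene Mcpt-ps1 (55949809 to 55952350, minus strand) overlaps Cma2 (55950980 to 55974031, plus strand), so counts of these 2 genes may not be separate where strand was not used in counting, which is not given in the sources used here. The last 500 bases of the Mcpt1 and Mcpt2 transcripts were 65.8% identical and the transcripts shared no stretch of 50 bases.

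A stomach mast barcode held a median of 1936 UMIs (397 to 18848) and 931 genes, and one of the other 1447 stomach barcodes held 2746 UMIs (280 to 24254) and 1469 genes. No doublet caller was run, and 60 mast barcodes held more than 3 times the median UMIs. Library totals ran from 8568438 to 12988676 UMIs, with 9022713 in stomach. Each library listed its own set of 14172 to 15320 gene symbols, so some genes have no value in some libraries. Libraries shared 1 to 6 barcode sequences in pairs, and between stomach mast barcodes and any other library the overlap was at most 4.

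The label was checked on marker genes that the rule did not count, although every gene of the same cells bears on a selection of this kind and no test is given. To compare barcodes of unequal depth, each barcode with at least 1000 UMIs was thinned to 1000. Of the 1713 stomach mast barcodes that remained, 99.2% held a UMI of Mcpt2, 92.1% of Cma1, 91.9% of Tpsb2, 81.0% of Mcpt1, 76.2% of Tph1, 61.6% of Kit and 58.6% of Gata2. The level of free RNA was read from stomach barcodes of other lineages. Among 293 barcodes with at least 2 CD3 UMIs, 16.7% (12.6–21.5) held an Mcpt2 UMI, 7.51% an Mcpt1 UMI, 1.37% a Tph1 UMI and 1.02% a Gata2 UMI. Among 281 barcodes with at least 2 Csf1r UMIs these shares were 14.6% (10.7–19.3), 6.41%, 0% (0–1.30) and 0.356%. Median depth before thinning was 1936 UMIs in mast barcodes, 2610 in the CD3 barcodes and 5060 in the Csf1r barcodes, and without thinning an Mcpt2 UMI was seen in 99.5%, 42.3% and 37.4% of them. A single Mcpt2 UMI thus marks no mast cell in this library, while each of the 6 mast cell markers outside the rule (Mcpt1, Mcpt2, Cma1, Tpsb2, Tph1 and Gata2) was seen in most of the mast barcodes.

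**Figure D1:**
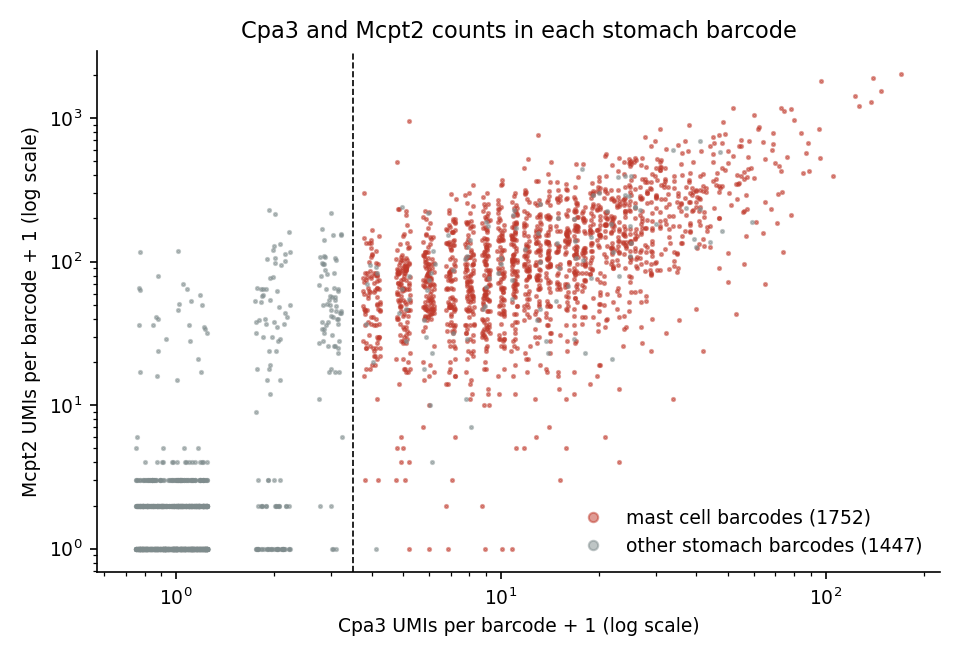
Each point is 1 stomach barcode, with its Cpa3 UMIs plus 1 on the horizontal axis and its Mcpt2 UMIs plus 1 on the vertical axis, both log scales, with points spread slightly sideways. The dashed line marks the minimum of 3 Cpa3 UMIs. Mast barcodes had a median of 11 Cpa3 and 102 Mcpt2 UMIs, and barcodes just left of the line reach into the same range of Mcpt2.

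The threshold cut through a continuous range. The 95 barcodes with exactly 3 Cpa3 UMIs, just inside, had a median of 1235 UMIs and Mcpt2 at 43586 CPM (counts per 1000000 UMIs of the group), with a UMI in 100% of them. The 64 barcodes with 2 Cpa3 UMIs and no lineage UMI, just outside, had 1172.5 UMIs and Mcpt2 at 45759 CPM, with a UMI in 95.3%. Mcpt2 was at 21746 CPM in the 73 barcodes with 1 Cpa3 UMI and at 1011.5 CPM in the 496 with none. A further 101 barcodes with at least 3 Cpa3 UMIs were left out for a lineage UMI. These had a median of 3060 UMIs and Mcpt2 at 39276 CPM, and Cd79a was seen in 36 of them, Cd3g in 34, Cd3d in 32, Csf1r in 27 and Cd3e in 15. The barcodes set against the mast cells thus include some with much mast cell RNA: of 22982 Mcpt2 UMIs in the other stomach barcodes, 1864 lay in barcodes with no Cpa3. For the leading genes the ratio to the 1172 barcodes with 0 Cpa3 UMIs is therefore given as well.

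Gene by gene, stomach mast barcodes were set against all other stomach barcodes, to describe which transcripts mark them. Of 4021 genes with at least 50 CPM in either group and at least 100 UMIs, 306 (7.61%) were at least 2-fold higher in mast barcodes and 913 (22.7%) at least 2-fold lower. The median log2 ratio over these genes was −0.27. The shares of 7.61% and 22.7% are the scale for the counts by list below. Totals without the 10 most abundant genes gave 479 higher and 808 lower. The rule chose the barcodes on this contrast, so these counts and all ratios to other stomach barcodes are descriptions.

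**Figure D2:**
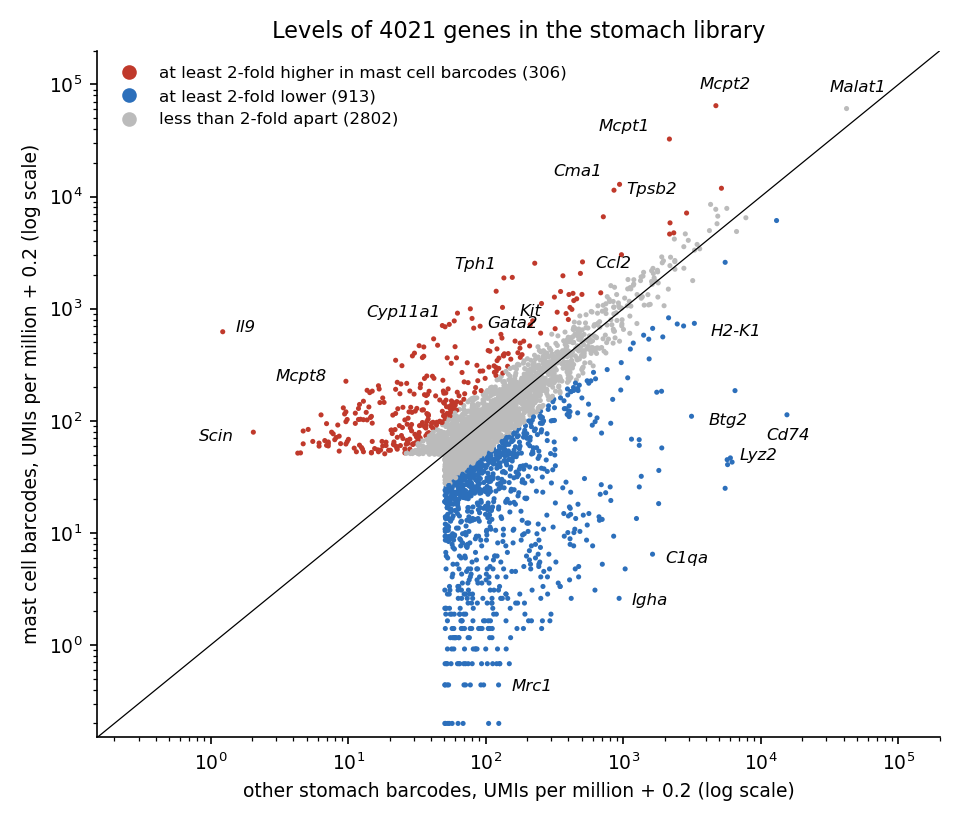
Each of 4021 genes is placed by its level in other stomach barcodes (horizontal) and in stomach mast barcodes (vertical), in CPM plus 0.2 on log axes. The 306 genes at least 2-fold higher in mast barcodes are red, the 913 at least 2-fold lower blue and the remaining 2802 grey. The granule proteases stand at the top, and Cd74 and C1qa lie far to the right and low.

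Granule proteases led the profile. All 12 of the listed proteases that entered, besides Cpa3, were at least 2-fold higher in mast barcodes, beside 7.61% over all genes. Their median log2 ratio was 3.70 against −0.27 over all genes. With Cpa3 and Ctsg, the 14 protease genes took 13.3% of all UMIs of the stomach mast barcodes, and between 0.930% and 42.8% of the UMIs of 1 barcode, with a median of 11.1%. Since each transcript is tagged at its 3′ end, levels are shares of transcripts and need no scaling by length.

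Mcpt2, a mucosal mast cell chymase, was the most abundant transcript of all, with 268615 UMIs or 6.47% of the total. It stood at 64728 CPM in mast barcodes and 4716 CPM in other barcodes, 13.7-fold higher (13.5–13.9) and 143-fold higher than in barcodes with 0 Cpa3. Per barcode it ran from 0 through a median of 102 to 2015 UMIs. Mcpt1, the other mucosal chymase and one that is shed into blood, stood at 32627 against 2166 CPM, a 15.1-fold difference (14.8–15.4), and 135-fold against 0 Cpa3. It ran from 0 through 27 to 1766 UMIs per barcode, and 84.0% of barcodes held at least 1. Cma1, a chymase of the connective-tissue type, stood at 12864 against 940 CPM (13.7-fold, 13.3–14.1) and ran from 0 through 19 to 420 UMIs.

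The tryptases, which act as heparin-bound tetramers, were abundant too. Tpsb2 stood at 11407 CPM in mast barcodes and 857 CPM in the others (13.3-fold, 12.9–13.7), with 0 to 378 UMIs per barcode around a median of 20. Tpsab1 stood at 2546 against 227 CPM (11.2-fold), and the membrane-anchored Tpsg1 at 708 against 48.2 CPM (14.7-fold, 12.8–16.8). Transcripts of both protease classes thus came from the same barcodes: after thinning, Mcpt2 was seen in 99.2% of them and Tpsb2 in 91.9%. Cpa3 itself, which the rule used, stood at 6846 CPM, with 3 to 170 UMIs per barcode.

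The remaining proteases were carried by fewer barcodes. Mcpt4, the main chymase of connective-tissue mast cells, stood at 819 against 79.4 CPM (10.3-fold, 9.28–11.5) but was seen in 28.3% of mast barcodes. Mcpt9 was at 149 against 12.7 CPM in 16.4% and Cma2 at 120 against 9.44 CPM in 16.7%. Mcpt8, best known as a basophil protease, was at 225 against 9.44 CPM (23.9-fold, 17.7–32.8) in 142 barcodes, or 8.11%. Prss34, a protease of basophils and mast cells, was at 51.6 against 4.31 CPM in 3.77%. Gzmb, the granzyme of killer lymphocytes, was at 277 CPM in mast barcodes and 119 CPM in the others, and was seen in 5.71% and 5.94% of them. Its level in the CD3 barcodes was 353 CPM.

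Transcripts for the granule body and its release were mixed. Of 15 genes of this list that entered, 7 were higher and 2 lower, beside 7.61% and 22.7% over all genes. The median log2 ratio was 0.50. Cd63, a granule membrane protein exposed on release, stood at 6609 against 717 CPM (9.22-fold, 8.90–9.56), and Srgn, the core protein of the granule proteoglycan, at 4751 against 2330 CPM (2.04-fold, 1.99–2.09). Rab27b, a GTPase that docks granules, was 7.67-fold higher (6.78–8.71), Stx3, a SNARE protein, 4.78-fold (4.05–5.68), and Ndst2, the sulfotransferase needed for heparin, 3.83-fold (3.07–4.81). Ctsc, the peptidase that activates granule proteases, was lower, at 122 CPM in mast barcodes and 401 CPM in the others, and so was Lamp1, at 59.8 against 209 CPM.

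Among the amine mediator genes named here, Tph1 had the highest level, and levels of transcripts do not show which amine is made. Of 7 genes that entered, 5 were higher and 0 lower (median log2 ratio 2.61), beside 7.61% and 22.7% over all genes. Tph1, the rate-limiting enzyme of serotonin synthesis outside the brain, had 7896 UMIs in mast barcodes and stood at 1903 CPM, against 156 CPM in the others (12.2-fold, 11.3–13.2), in 89.0% of mast barcodes. Ddc, the decarboxylase that completes serotonin, stood at 205 against 16.4 CPM (12.5-fold, 9.94–15.9). Hdc, the enzyme of histamine synthesis, stood at 250 against 40.8 CPM (6.11-fold, 5.25–7.15) and was seen in 22.9% of mast barcodes. Slc18a2, which loads amines into vesicles, was at 239 against 35.7 CPM (6.69-fold), and Gch1, which makes a cofactor of Tph1, at 270 against 67.1 CPM (4.02-fold).

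Among lipid mediator genes, 3 of 8 that entered were higher and 2 lower (median log2 ratio 0.53), beside 7.61% higher and 22.7% lower over all genes. Alox5 and Alox5ap, which start leukotriene synthesis, stood at 472 against 44.5 CPM (10.6-fold, 9.21–12.3) and 1424 against 350 CPM (4.07-fold, 3.85–4.29). Hpgds, which makes prostaglandin D2, was at 424 against 104 CPM (4.07-fold, 3.69–4.51). The inducible cyclooxygenase Ptgs2 was lower, at 9.16 against 58.9 CPM, and Hpgd, which degrades prostaglandins, had 2 UMIs in mast barcodes and 303 in the others.

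Of 21 receptor genes that entered, 11 were higher and 4 lower (median log2 ratio 1.47), beside 7.61% and 22.7% over all genes. Kit, the stem cell factor receptor, stood at 1028 against 132 CPM (7.76-fold, 7.14–8.45) and was seen in 82.8% of mast barcodes. The IgE receptor chains differed: the alpha chain Fcer1a stood at 401 against 30.2 CPM (13.3-fold, 11.2–15.9) in 29.3% of mast barcodes, the beta chain Ms4a2 at 140 against 11.9 CPM (11.7-fold, 8.95–15.7), and the gamma chain Fcer1g, shared with other receptors, at 3575 against 2757 CPM (1.30-fold, 1.27–1.33) in 99.5%. Il1rl1, the receptor for interleukin 33, stood at 698 against 90.9 CPM (7.68-fold), and Csf2rb2, a chain that pairs with the interleukin 3 receptor, at 364 against 52.3 CPM (6.96-fold). Mrgprb2, the receptor of connective-tissue mast cells for cationic peptides, stood at 67.7 against 7.80 CPM (8.68-fold, 6.17–12.5) in 11.9% of mast barcodes. Ifngr1, a chain of the interferon gamma receptor, was lower, at 91.3 against 596 CPM. Ramp1, a chain of the receptor for the neuropeptide CGRP, was at 20.2 against 193 CPM.

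Of 13 transcription factor genes that entered, 5 were higher and 1 lower (median log2 ratio −0.15), beside 7.61% and 22.7% over all genes. Gata2, which mast cells need to form, stood at 998 against 77.2 CPM (12.9-fold, 11.6–14.4), Tal1, a partner of GATA factors, at 192 against 16.6 CPM (11.6-fold, 9.18–14.7), and Mitf, a factor that mast cells depend on, at 230 against 48.6 CPM (4.73-fold, 4.10–5.47). Cebpb, a myeloid factor, was lower, at 7.47 against 73.3 CPM. In the IgE receptor and KIT signalling list 4 of 13 genes were higher and 3 lower (median log2 ratio −0.16), and the share lower is near the 22.7% over all genes. The higher ones were the adaptors Lat2, at 1113 against 254 CPM (4.37-fold, 4.11–4.66), and Lat, at 720 against 211 CPM (3.42-fold), and the kinases Prkcb, at 1270 against 316 CPM (4.02-fold), and Btk (2.92-fold). Lower were Dok2, Orai1 and Plcg2, at 12.1, 8.67 and 34.0 CPM in mast barcodes.

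Type 2 cytokine transcripts were present in a minority of the mast barcodes. Il4 was seen in 550 barcodes (31.4%) and stood at 191 against 22.0 CPM (8.69-fold, 7.09–10.7), and Il13 in 204 (11.6%), at 116 against 22.0 CPM (5.29-fold, 4.28–6.58), with 13.1% of its UMIs in 1 barcode. Il6, a pyrogenic cytokine, was seen in 340 (19.4%), at 125 against 34.3 CPM (3.64-fold, 3.05–4.35). At least 1 of the 3 was seen in 849 barcodes (48.5%), Il4 and Il13 together in 92, and all 3 in 38. Il5, which recruits eosinophils, had 1 UMI in 1752 mast barcodes. Over the cytokine and chemokine list 7 of 20 genes were higher and 6 lower (median log2 ratio 0.24), beside 7.61% and 22.7% over all genes.

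Among chemokines, Ccl2, which draws monocytes, stood at 2616 against 506 CPM (5.17-fold, 4.95–5.41) and was seen in 72.1% of mast barcodes. Ccl1 was at 125 against 35.1 CPM in 8.85%, and Csf1, the macrophage growth factor, at 112 against 20.9 CPM (5.36-fold). Tnf was at 347 against 213 CPM, 1.63-fold higher and thus within 2-fold. Il1b and Cxcl2 were far lower, at 13.3 against 1248 CPM and 57.1 against 1906 CPM. Il9, a growth factor for mast cells, reached 623 against 1.03 CPM, the largest ratio of all named genes, but 99.7% of its 2586 UMIs came from 1 barcode. No other mast barcode held more than 1 Il9 UMI, and 8 held any. That barcode had 11318 UMIs, of which Il9 took 22.8%, and it also held 1066 UMIs of Mcpt1, 948 of Mcpt2, 62 of Mcpt8, 34 of Il13 and 4 of Cpa3.

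Among the 25 genes with the highest ratios, which the rule for named genes takes, those not yet described were a mixed set. Scin, an actin-severing protein, followed Il9 at 79.0 against 1.85 CPM (42.8-fold, 22.3–94.4). Cyp11a1, which cuts the side chain of cholesterol to start steroid synthesis, stood at 913 against 62.2 CPM (14.7-fold, 13.1–16.6). Rprm, a cell cycle regulator, was at 347 against 22.0 CPM (15.8-fold, 13.0–19.4). Car8, a carbonic anhydrase-related protein, was at 690 against 50.5 CPM, Cd200r3, a receptor of mast cells and basophils, at 725 against 54.2 CPM, and Atp8b5, a lipid flippase, at 778 against 58.9 CPM. Serpinb1a, an inhibitor of granule proteases, was at 538 against 41.7 CPM, Adamts5, a matrix protease, at 379 against 29.1 CPM, and Hs6st2, a heparan sulfate sulfotransferase, at 187 against 13.5 CPM. Meis1, a homeobox factor, was at 130 against 9.03 CPM, and the pseudogene Mcpt-ps1 at 1882 against 135 CPM. Slc45a3, Erv3, Tmem233 and Prkg1 stood at 113, 83.6, 94.2 and 62.2 CPM in mast barcodes, against 6.16, 4.93, 6.77 and 4.51 CPM in the others.

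Adhesion and antigen presentation transcripts were low. Of 15 adhesion genes that entered, 11 were lower and 1 higher (median log2 ratio −3.09), beside 22.7% and 7.61% over all genes. The higher one was Itga2b, a platelet and mast cell integrin chain, at 310 against 24.4 CPM (12.7-fold, 10.5–15.5). Itgae and Itgb7, which form the receptor for E-cadherin of the epithelium, were within 2-fold, at 148 against 96.7 CPM and 247 against 209 CPM, and were seen in 21.3% and 39.6% of mast barcodes. The leukocyte integrin chain Itgb2 was at 14.2 against 278 CPM, and Itgal, its partner in LFA-1, at 10.6 against 264 CPM. All 7 class II genes were lower (median log2 ratio −7.01), as were 7 of 8 class I genes. The same shares over all genes are the scale for these counts and for those of the interferon genes. The rule placed barcodes with Cd79a or Csf1r UMIs in the other group, and the part of this in the class II values was not tested. H2-K1 was at 740 against 3290 CPM, and B2m, the class I light chain, at 731 against 2470 CPM. Of 10 interferon response genes, 7 were lower and 2 higher, the higher ones being Ifitm2, at 1027 against 410 CPM, and Ifitm1, at 376 against 35.3 CPM.

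Markers of other cells were mostly low in the stomach mast barcodes. The rule itself kept out barcodes with a UMI of Cd3d, Cd3e, Cd3g, Cd79a or Csf1r. Low values of T cell, B cell and macrophage genes thus follow in part from the rule and are no check of it. The macrophage list of 8 genes summed to 512 CPM in mast barcodes and 15420 CPM in the others, with C1qb at 0; Cx3cr1 made up 261 CPM and Apoe 186 CPM of it. The T cell list of 10 genes summed to 58.1 against 2067 CPM with Cd8a and Cd8b1 at 0, the list of 8 genes for NK cells and ILC1 to 44.1 against 1414 CPM, and the ILC2 list of 6 genes to 33.7 against 461 CPM. The B cell list of 6 genes summed to 29.4 against 1598 CPM with Ebf1 among the genes at 0, and the plasma cell list of 6 to 102 against 7287 CPM with Sdc1 at 0. Of 7 eosinophil genes 4 were listed, at 5.54 against 87.6 CPM, of 5 neutrophil genes 4, at 10.6 against 1372 CPM, and of 15 stomach epithelium genes 13, at 85.5 against 1065 CPM, with Epcam at 0. The basophil list of 4 genes moved with the mast barcodes, at 1006 against 74.7 CPM. In that list Cd200r3 held most of the sum and was seen in 72.5% of mast barcodes, and Itga2 had 19 UMIs. The part of basophils in the Mcpt8 and Prss34 values was not tested. Among the 12 lowest named genes were Mrc1, Ccr7, Pf4, Zmynd15, Acp5, Cd36, Trem2, Ifitm6, C1qa, Itgb5 and C1qc, several of them macrophage genes. They had 1 to 26 UMIs in mast barcodes, C1qa with 26 against 7958, and Mrc1 with 1 against 604.

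Early response transcripts were high in both groups. Of 19 genes of the immediate early and dissociation list, 4 were at least 2-fold higher and 4 lower in mast barcodes, with a median log2 ratio of 0.22. Over all genes 7.61% were higher and 22.7% lower. Dnajb1, a co-chaperone, was at 7138 against 2888 CPM (2.47-fold), Jun at 5832 against 2189 CPM (2.66-fold), Fosb at 4635 against 2174 CPM (2.13-fold), and Ier3 at 1966 against 364 CPM (5.40-fold). Lower were Btg2, at 110 against 3137 CPM, Atf3, at 357 against 1543 CPM, Zfp36, at 830 against 2136 CPM, and Egr2. At 1000 UMIs the list summed to a median of 55 UMIs per mast barcode (0 to 216) and 39 per other barcode (0 to 224). The part of cell handling in these levels was not tested.

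The mast barcodes were then compared with each other. At 1000 UMIs per barcode, a gene that varies by counting alone has a variance equal to its mean. Of 1425 genes with a mean of at least 0.1 UMI over 1713 barcodes, 130 (9.12%) had a variance at least 1.5 times the mean, and the median over genes was 1.04. All 12 granule proteases measured at this level did so, among them Cpa3, whose low values the rule removed, and not Prss34, which was too low to be measured here, as did 16 of 17 immediate early genes and 8 of 10 cytokine and chemokine genes. Of the receptors 1 of 11 did so and of the transcription factors 1 of 9, both near the 9.12% over all genes. Among IgE receptor and KIT signalling genes 0 of 8 did so, and among lipid mediator genes 0 of 4. The number of genes called rose with the thinning depth, as given below. Low counts thus limit this call, and no list is read as uniform among barcodes.

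**Figure D3:**
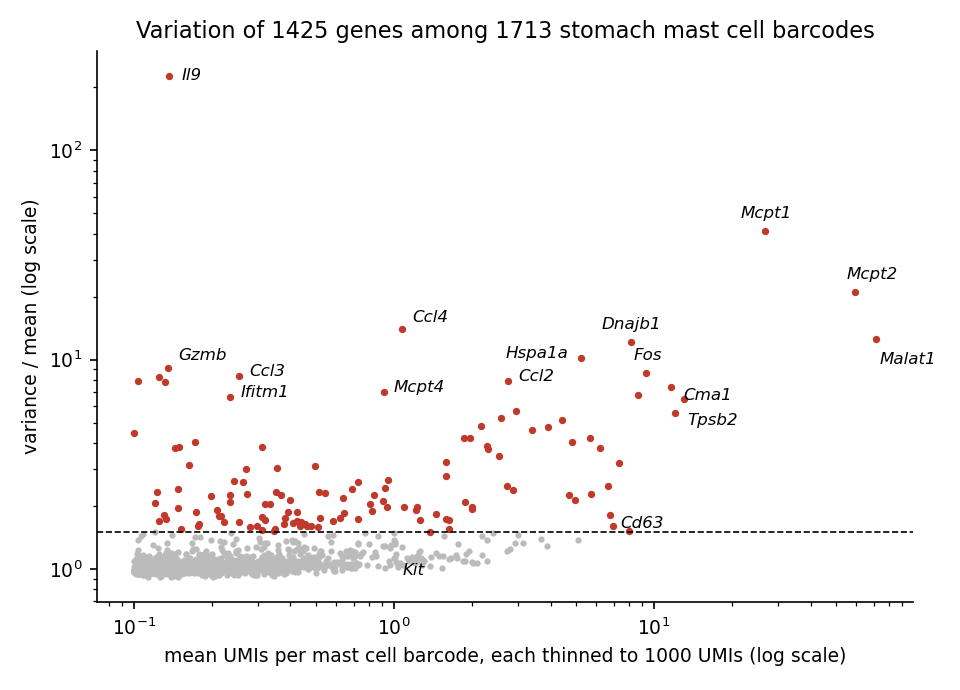
Each point is 1 of 1425 genes in 1713 stomach mast barcodes thinned to 1000 UMIs, with the mean UMIs per barcode on the horizontal axis and the variance divided by the mean on the vertical axis, both log scales. The dashed line marks 1.5. Mcpt1 and Mcpt2 stand highest among abundant genes, at 41.2 and 21.1, and Il9 stands at 227 with 98.7% of its UMIs in 1 barcode.

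After Il9, at 227, the most variable gene was Mcpt1, with a variance 41.2 times its mean. Its median was 15 UMIs per 1000 and its range 0 to 229, and 81.0% of barcodes held a UMI. Mcpt2 varied less, at 21.1 with a median of 55 and a range of 0 to 247, and Cma1 stood at 7.38 with a median of 10. The heat-shock genes Dnajb1 and Hspa1a stood at 12.2 and 10.2, and Fos at 8.67. Of the chemokine genes, Ccl2 (7.93) was seen in 60.7% of barcodes and the others in fewer: Ccl4 (14.1) was seen in 22.6%, Ccl3 (8.39) in 9.05%, Ccl1 (8.27) in 5.66%, and Ccl7 (7.82) in 3.39%. Gzmb (9.11) was seen in 58 barcodes and Cd74 (7.94), the class II invariant chain, in 88. The nuclear RNA Malat1, seen in every barcode, stood at 12.6.

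Across the 1713 thinned barcodes, which share 1 library and a fixed total, pairs were taken among the 60 genes of highest variance over mean. Of 1770 pairs, 35 had a Pearson correlation of at least 0.4 and 43 one of −0.2 or lower. The low side included Hspa1b and Vim (−0.32), Mcpt2 and Fosb (−0.31) and Junb and Cpa3 (−0.31). The early response factors went together, with 0.67 for Junb and Fosb and 0.61 for Fos and Jun. Dnajb1 and Hsp90aa1 stood at 0.54, and the tryptases Tpsb2 and Tpsab1 at 0.51. Hspa1a and Hspa1b stood at 0.72, but 58.8% of the 50-base stretches of Hspa1a also occur in Hspa1b, so counts of that pair may be split between them.

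Mcpt1 was set against Mcpt2 in each barcode, since both are mucosal chymases. Among 1726 stomach mast barcodes with at least 10 UMIs of the pair, Mcpt1 made up a median of 23.2% of them, with quartiles of 3.24% and 42.6%. The share was under 10% in 574 barcodes (33.3%) and over 50% in 282 (16.3%). In the 56 small intestine mast barcodes the median was 48.2%, with 6 under 10% and 26 (46.4%) over 50%. In the cecum all 15 lay over 50%, with a median of 67.4% (lowest 51.0%), and in the colon the 2 barcodes were at 65.1% and 74.0%. Over pooled counts there were 50.4 Mcpt1 UMIs per 100 of Mcpt2 in stomach mast barcodes, against 53.6 in stomach barcodes with 0 Cpa3.

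**Figure D4:**
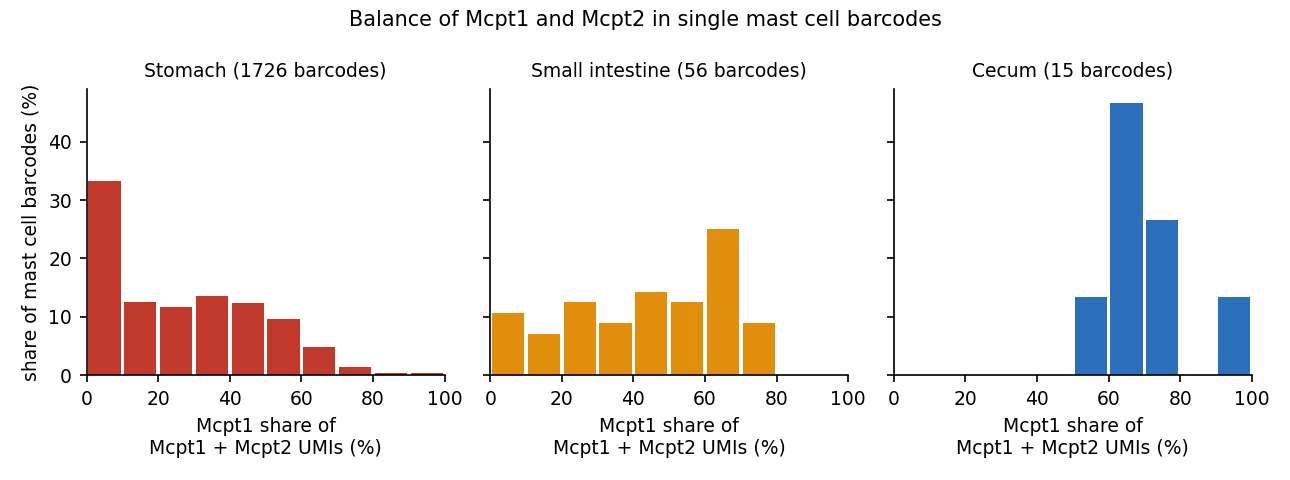
Histograms of the Mcpt1 share of Mcpt1 plus Mcpt2 UMIs in each mast barcode with at least 10 such UMIs, in bins of 10%, for stomach (1726 barcodes), small intestine (56) and cecum (15). The stomach barcodes pile up under 10%, where 574 lie, while all 15 cecum barcodes lie over 50%.

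The stomach barcodes with a share over 50% (280 of those with 1000 UMIs), between 10% and 50% (849) and under 10% (560) differed in other genes, which are given as means per 1000 UMIs and were picked after their values were seen. Ifitm1, an interferon-induced membrane protein, stood at 0.832 (0.729–0.946), 0.153 (0.128–0.182) and 0.0625 (0.0435–0.0869) in that order. Gzmb stood at 0.396, 0.117 and 0.0125, Mcpt4 at 1.41, 0.992 and 0.580, and Fcer1a at 0.507, 0.355 and 0.225. Tpsb2 ran the other way, at 9.90, 12.2 and 12.8, and so did Fos, at 7.08, 8.96 and 10.8. So did Malat1, at 58.2, 70.7 and 77.1, Kit, at 0.868, 0.966 and 1.125, and Gata2, at 0.882, 0.987 and 1.11. Tph1, at 2.46, 2.04 and 1.74, and Actb, at 6.20, 5.89 and 5.20, ran like Ifitm1. Mcpt1 itself took 72.6, 29.2 and 1.31 of the fixed 1000 UMIs, and its part in the lower values of other genes was not tested. Median depths before thinning were 2341.5, 1977 and 1830 UMIs.

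The 128 thinned stomach mast barcodes with an Ifitm1 UMI were also set beside the 1585 without, a split chosen after values were seen, in which 64 of the 128 held exactly 1 such UMI. Mcpt1 stood at 56.6 (55.3–57.9) and 24.4 (24.1–24.6) per 1000 UMIs, Gzmb at 1.16 (0.985–1.37) and 0.0524 (0.0417–0.0649), and Scin at 0.203 and 0.0271. Hs3st1, a heparan sulfate sulfotransferase, stood at 0.445 and 0.124, Fcer1a at 0.648 and 0.310, and Mcpt9 at 0.359 and 0.132. Tpsb2 was lower, at 7.88 (7.40–8.38) and 12.3 (12.2–12.5), as was Cma1, at 8.59 and 11.8. Malat1 was lower too, at 56.2 and 72.4. Mcpt2, at 59.1 and 59.4, and Cpa3, at 6.38 and 6.65, stood close in both. The barcodes with Ifitm1 were deeper before thinning, with a median of 2472 against 1935 UMIs.

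Proliferation transcripts were seen in a small subset. Of 9 genes of that list, 3 were at least 2-fold higher in mast barcodes and 0 lower, beside 7.61% and 22.7% over all genes. Of the stomach mast barcodes, 64 (3.65%, 2.82–4.64) held UMIs of at least 2 of the 8 cell cycle genes Mki67, Top2a, Birc5, Ube2c, Cdk1, Ccnb2, Nusap1 and Rrm2, against 32 of the other barcodes (2.21%, 1.52–3.11). With at least 3 of the 8 genes there were 47 mast barcodes (2.68%, 1.98–3.55) against 15 other barcodes (1.04%, 0.581–1.70). With at least 1 of the 8 genes the order was turned, with 173 mast barcodes (9.87%, 8.52–11.4) against 200 other barcodes (13.8%, 12.1–15.7). The direction thus depended on the cut, and none is read from these shares. All 64 held Mcpt2. They were deeper, with a median of 4714.5 UMIs against 1898.5 in the remaining 1688 mast barcodes, and depth itself raises the chance of meeting the count of genes. In the 64 barcodes Tpsb2 stood at 6163 CPM against 11914 CPM in the 1688, Tpsab1 at 983 against 2697, Tph1 at 1106 against 1980, Cma1 at 17488 against 12417, and Mcpt8 at 472 against 201 CPM. Mcpt1 stood at 33445 against 32548 CPM.

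Mast barcodes of the stomach were last set against the 56 of the small intestine, to ask how their profile differs between segments. Of 3700 genes with at least 50 CPM in either group and at least 20 UMIs, 219 (5.92%) were at least 2-fold higher in stomach and 612 (16.5%) lower, and the median log2 ratio was −0.11. Totals without the 10 most abundant genes gave 330 higher and 659 lower. Of the 219, 66 were also at least 2-fold higher between the other barcodes of the same libraries and 4 stood below 20% of the level of those other barcodes, and 153 were neither. Of the 612 these counts were 168, 5 and 443. The other stomach barcodes include some with much mast cell RNA, and their part in these counts was not tested. The small intestine barcodes held a median of 2453.5 UMIs (1746 to 6148), and no barcode of that library held fewer than 1581. Genes listed as markers of other cells were at low levels in both groups. The plasma cell list summed to 102 CPM in stomach and 563 CPM in small intestine mast barcodes, with Sdc1 at 0 in both. The macrophage list summed to 512 and 367 CPM, and the T cell list to 58.1 and 32.7 CPM. Of the macrophage sums, Cx3cr1 made up 261 and 229 CPM, and it stood at 190 and 6.81 CPM in the other barcodes of these libraries. The part of RNA of other cells in the differences was not tested.

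**Figure D5:**
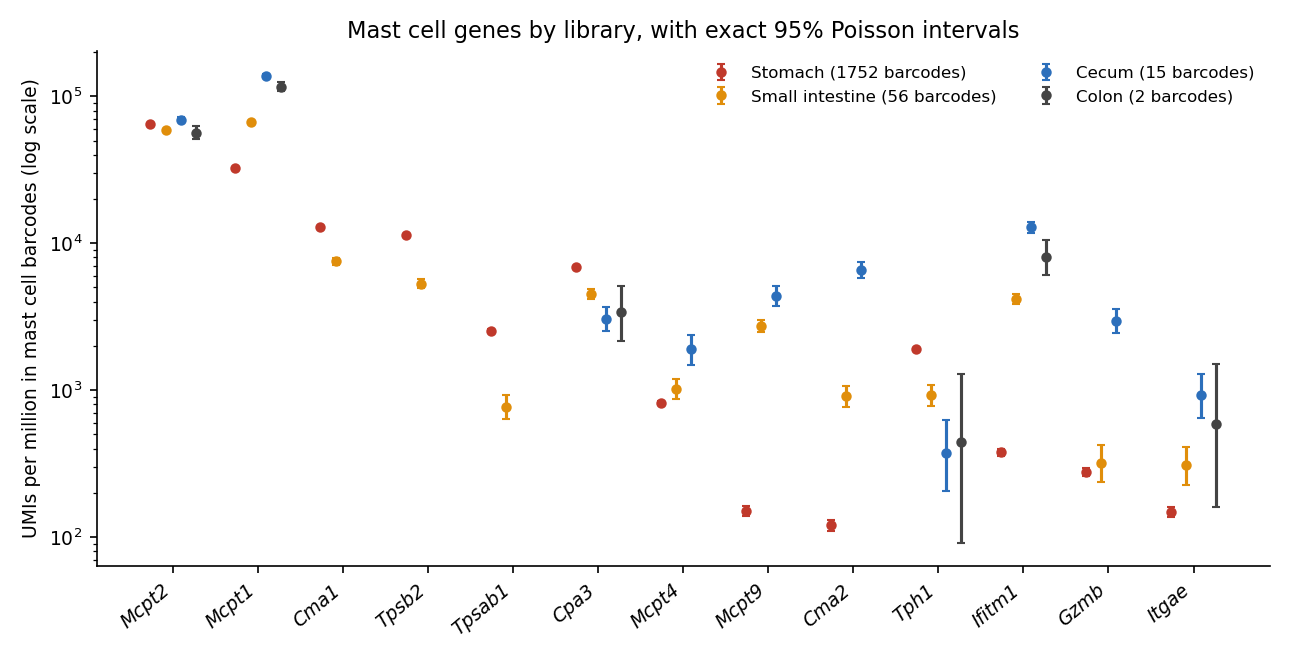
Level of 13 genes in the mast barcodes of each library (stomach, small intestine, cecum and colon, with 1752, 56, 15 and 2 barcodes), in CPM on a log axis, with exact 95% Poisson intervals that cover counting error only. Mcpt2 stays between 56496 and 69473 CPM, Mcpt1 is lowest in stomach at 32627 CPM, and genes not listed in a library have no point.

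Of the mucosal chymases, Mcpt2 stood at 64728, 58936, 69473 and 56496 CPM in mast barcodes of stomach, small intestine, cecum and colon, and its stomach to small intestine ratio was 1.10 (1.08–1.12). Mcpt1 stood at 32627, 67042, 137933 and 116669 CPM in the same order, a stomach to small intestine ratio of 0.487 (0.477–0.497). In other barcodes of the 4 libraries Mcpt1 was at 2166, 125, 368 and 55.9 CPM. Mcpt9 was lower in stomach, at 149 CPM against 2730 in small intestine (ratio 0.0547, 0.0483–0.0621), and stood at 4395 CPM in cecum. In barcodes with an Mcpt1 share over 50% Mcpt9 stood at 0.275 (0.217–0.344) per 1000 UMIs in stomach and 5.92 (5.02–6.94) in small intestine. With a share between 10% and 50% Mcpt9 stood at 0.144 (0.119–0.172) in stomach and 0.25 (0.0917–0.544) in the 24 small intestine barcodes. The latter intervals overlap, but they cover counting error only and do not show equal levels. Cma2, which overlaps Mcpt-ps1, ran alike, at 120, 910 and 6553 CPM in stomach, small intestine and cecum. Cma2 stood at 0.214 per 1000 UMIs in stomach and 1.73 in small intestine barcodes with a share over 50%, and at 0.104 in stomach and 0.0833 (0.0101–0.301) in small intestine with a share between 10% and 50%. Mcpt4 was within 2-fold, at 819 CPM in stomach, against 1021 CPM in small intestine.

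The tryptases were higher in stomach. Tpsab1 stood at 2546 CPM in stomach mast barcodes, against 773 CPM in those of the small intestine (3.29-fold, 2.75–3.98), Tpsb2 at 11407 and 5310 CPM (2.15-fold, 2.004–2.305), and Tpsg1 at 708 and 321 CPM (2.21-fold, 1.66–2.99). Cma1 was 1.71-fold higher (1.61–1.81), at 12864 and 7536 CPM, and Cpa3, which the rule used in both libraries, stood at 6846 and 4518 CPM. At 1000 UMIs, Tpsb2 was seen in 91.9% of stomach and 60.7% of small intestine mast barcodes, and Tpsab1 in 79.7% and 41.1%. With an Mcpt1 share between 10% and 50%, Cma1 stood at 12.8 (12.6–13.1) per 1000 UMIs in stomach and 12.5 (11.09–13.95) in small intestine. These intervals overlap. With a share over 50% Cma1 stood at 9.78 and 4.85 (4.04–5.77). Tpsb2 stood at 12.2 and 8.92 (7.76–10.2) in the first class and at 9.90 and 4.42 (3.65–5.31) in the second. The second class made up 16.3% of stomach and 46.4% of small intestine barcodes. Over the proteases 3 of 11 genes were higher and 3 lower, beside 5.92% and 16.5% over all genes. Tpsab1, Tpsb2, Tpsg1 and Cma1 stood at 48.2 to 940 CPM in the other barcodes of the stomach, against 2.24 to 25.8 CPM in those of the small intestine. The other stomach barcodes include some with much mast cell RNA. In stomach barcodes with 0 Cpa3, Cma1 stood at 96.1 CPM, Tpsb2 at 93.2 CPM and Tpsg1 at 5.33 CPM.

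Mediator and cytokine genes were also compared. Tph1 stood at 1903 CPM in stomach, against 923 CPM in small intestine (2.06-fold, 1.74–2.45), Alox5ap at 1424 and 740 (1.92-fold, 1.60–2.34), and Hdc at 250 and 183 CPM (1.36-fold, 0.937–2.06), an interval that includes 1. Of 14 cytokine and chemokine genes, 8 were higher and 3 lower (median log2 ratio 1.16), beside 5.92% and 16.5% over all genes. Ccl2 stood at 2616 and 956 CPM (2.74-fold, 2.32–3.24), Ccl3 at 270 and 39.3 CPM (6.88-fold, 3.15–18.8), Il13 at 116 and 32.7 CPM (3.55-fold, 1.51–10.98) and Il6 at 125 and 45.8 CPM (2.72-fold, 1.31–6.79). Ccl7 had 567 UMIs in stomach and 0 in small intestine mast barcodes, at least 6.96-fold higher when set against 3 counts in the whole group. All 8 genes just named (Tph1, Alox5ap, Hdc, Ccl2, Ccl3, Il13, Il6 and Ccl7) were higher in the other stomach barcodes as well. Tph1 stood there at 156 CPM against 2.85 CPM in those of the small intestine, Alox5ap at 350 against 56.0, Hdc at 40.8 against 2.16, Ccl2 at 506 against 11.7, Ccl3 at 608 against 166, Il13 at 22.0 against 1.03, Il6 at 34.3 against 1.03 and Ccl7 at 69.2 against 1.03 CPM. The other stomach barcodes include some with much mast cell RNA, and Tph1 stood at 21.3 CPM in stomach barcodes with 0 Cpa3. The part of these barcodes in the levels of the others, and of free RNA in the mast cell values, was not tested. Kit stood at 1028 and 923 CPM (1.11-fold, 0.941–1.33), Gata2 at 998 and 1270 CPM (0.786, 0.680–0.912) and Fcer1a at 401 and 694 CPM (0.578, 0.475–0.711), all within 2-fold.

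Ifitm1, which was higher in the Mcpt1-rich stomach barcodes, and Scin were lower in stomach than in the other libraries. Ifitm1 stood at 376, 4158, 12813 and 8092 CPM in mast barcodes of stomach, small intestine, cecum and colon, a stomach to small intestine ratio of 0.0905 (0.0825–0.0994). The small intestine value came mostly from barcodes with an Mcpt1 share over 50%, which made up 16.3% of the stomach and 46.4% of the small intestine barcodes. In that class Ifitm1 stood at 0.832 (0.729–0.946) per 1000 UMIs in stomach and 6.69 (5.73–7.76) in small intestine. In the class between 10% and 50% it stood at 0.153 (0.128–0.182) in stomach and 0.25 (0.0917–0.544) in the 24 small intestine barcodes. Intervals of that class overlap, but they cover counting error only and do not show equal levels. Scin stood at 79.0, 550, 1039 and 588 CPM, a ratio of 0.144 (0.113–0.185). Itgae stood at 148, 308, 932 and 588 CPM in the same order, with 4 UMIs behind the colon value. Gzmb stood at 277, 321, 2957 and 0 CPM, where 3 counts in colon would be 441 CPM, and at 119, 2130, 232 and 1151 CPM in the other barcodes of the 4 libraries. At 1000 UMIs, Ifitm1 was seen in 7.47% of 1713 stomach, 37.5% of 56 small intestine and all 13 cecum mast barcodes.

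By the rule for named genes, the 12 highest ratios of stomach to small intestine each rested on 1 or 2 UMIs in small intestine and have wide intervals. Ccl1 came first, at 125 CPM in stomach, against 6.55 CPM in small intestine (19.1-fold, 3.42–757). Prdx4, Ube2c, Bola1, Rpa3, Ppp6c, Pclaf, Hint3, Cast, Gadd45g, Cbr1 and Stap1 followed with 7.42-fold to 9.86-fold. Gadd45g, a stress response gene, was also higher in other stomach barcodes, at 220 CPM against 26.5 CPM in other small intestine barcodes, and its mast cell log2 ratio of 2.96 less that of the other barcodes was −0.094. Among the lowest, Gzma (1.45 and 98.2 CPM) stood below 20% of the level in other small intestine barcodes, at 16019 CPM. Scand1 (6.27 and 236 CPM) and Taf10 (6.02 and 170 CPM) were low in other stomach barcodes too, at 9.44 and 8.82 CPM against 330 and 182 CPM in the other small intestine barcodes. Cebpb stood at 7.47 CPM in stomach mast barcodes, against 144 CPM in those of the small intestine (0.0519, 0.0291–0.0940), against 73.3 and 95.7 CPM in the other barcodes. Tnfaip2 stood at 3.61 and 72.0 CPM, and Avil, an actin-binding protein, at 11.3 and 196 CPM. The remaining lowest were Grasp, Atp1b1, Snx18, Hic1, Mcpt9 and Prr7, at ratios of 0.0353 to 0.0589. Jund, an AP-1 factor, stood at 720 and 6292 CPM in mast barcodes and at 618 and 2260 CPM in the other barcodes.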

How the data were processed

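The deposited matrices held whole-number UMI counts, with genes given by symbol. The submitters' processing notes name Cell Ranger, Seurat 3.0.0 and GRCm38 (mm10), and no further step by the authors is given in the sources used here. The members, gene lists and splits were chosen with earlier results of these data known. Barcodes were used as deposited, with no clustering, no filter on genes and no doublet removal. No ribosomal protein or mitochondrial symbol was listed in these count tables. Counts were summed over barcodes and divided by the total of listed genes to give CPM (counts per 1000000). Ratios carry exact conditional binomial intervals; the floor for a count of 0 was 3 counts over the group. Thinning drew 1000 UMIs per barcode without replacement (seed 1). Lineage gates were at least 2 CD3, Cd79a or Csf1r UMIs, or 1 Ncr1 UMI without CD3, all under 3 Cpa3 UMIs. Named genes were the 25 highest and 12 lowest stomach ratios, the 12 highest and 12 lowest between stomach and small intestine, the 15 highest values of variance over mean, and list members; receptor and immunoglobulin segments, sex-linked genes, Gm and Rik symbols were passed over. Other genes named were chosen after their values were seen. A few genes that the rule takes are not reported here. Alternatives covered the Cpa3 minimum, depth, reference barcodes, totals, filters and thinning. Calculations were tested on simulated data and used Python 3.11.15, numpy 2.4.6, scipy 1.17.1 and pandas 2.3.3.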

Additional observations from a re-analysis of the deposited data

How the results depend on the processing

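With 1 library per tissue, all values rest on counting, and no setting can stand in for a replicate. No paired analysis was possible because each group is 1 library. The share of stomach barcodes taken as mast cells, 54.8%, was 59.1% with a Cpa3 minimum of 1, 56.8% with 2, 47.8% with 5 and 31.9% (1020 barcodes) with 10, and 52.9% without barcodes over 3 times the median depth. The 306 higher and 913 lower genes in stomach became 479 and 808 when totals left out the 10 most abundant genes, and 966 and 2832 with a minimum of 20 UMIs and no CPM minimum. Against barcodes with 0 Cpa3 they were 352 and 1005, and against the 688 with 0 Cpa3 and 0 Mcpt2, a reference chosen after seeing the data, 349 and 1031. The 219 higher and 612 lower genes against small intestine became 330 and 659 with totals without the 10 most abundant genes, and 38 and 96 with minimums of 200 CPM and 50 UMIs. They were 204 and 594 with only the 1177 stomach mast barcodes that held at least 1581 UMIs, the lowest total of any small intestine barcode. The median share of barcodes with a marker UMI, 86.5%, was 91.3% without thinning, 82.0% at 500 UMIs and 80.6% with at least 2 UMIs. The 130 genes of high variance became 64 at 500 UMIs, 217 at 2000 UMIs and 77 with a variance of at least 2 times the mean. Gadd45g changed direction, with a log2 ratio of −0.094 once that of the other barcodes was taken off; a level shared by other barcodes is part of that value by construction. Causes of the remaining shifts were not tested. Depth limits low genes in the stomach to small intestine comparison, since 1 UMI in the 56 barcodes is 6.55 CPM for a gene such as Ccl1.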

Other observations

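Among the 75 thinned stomach mast barcodes with an Mcpt8 UMI, of which 43 held exactly 1, and the 1638 without, Il13 stood at 0.253 (0.153–0.396) and 0.0830 (0.0697–0.0982) UMIs per 1000. Hs3st1, a heparan sulfate sulfotransferase, stood at 0.587 and 0.128 and Scin at 0.267 and 0.0299. Tpsb2 was lower in the barcodes with Mcpt8, at 6.84 and 12.2, as were Tph1, at 1.32 and 2.03, and Mcpt4, at 0.280 and 0.941. Malat1 was lower too, at 46.6 and 72.3. Mcpt1 stood at 34.9 and 26.4, Cma1 at 12.3 and 11.5, Kit at 0.880 and 1.01, and Gata2 at 1.12 and 1.01. Median depth before thinning was 3856 and 1927.5 UMIs. The part of basophils or of depth in this difference was not tested.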
